A study of Mus musculus with 12 samples.

Results

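The Dlx, Lhx, Pax, Six-family, Irx, Otx, Tbx, Gata and Nkx genes encode transcription factors that pattern the early embryo and set cell identity. Genes were chosen by name, as every symbol made of 1 of these 9 family names and a number, and 70 named genes matched. Of these, 64 had at least 500 cytosine calls in each of 12 libraries, and they are described here among the 19822 genes that reached that coverage. The 6 that did not were Nkx1-1, Nkx2-4, Nkx2-5, Nkx2-9, Nkx3-2 and Six5, whose lowest call count in a library was 60 to 496, and the members nearest the limit were Nkx1-2 with 511 calls and Irx3 with 548. The families hold 6 Dlx, 8 Lhx, 9 Pax, 5 Six-family, 6 Irx, 2 Otx, 13 Tbx, 6 Gata and 9 Nkx genes. They do not share a single protein fold. Dlx, Lhx, Six-family, Irx, Otx and Nkx proteins carry a homeodomain, Pax proteins a paired domain, Tbx proteins a T-box, and Gata proteins zinc fingers, so the families are named below rather than called homeobox genes as a whole.

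The measurement was non-CG methylation (mCH), that is, methyl groups on cytosines with a base other than G next to them on the 3′ side, in genomic DNA of mouse cortex. Whole-genome bisulfite sequencing was used, in which an unmethylated cytosine is read as thymine, and the level of a gene is the percentage of its non-CG calls that were methylated. All mice were on the C57BL/6 background. At postnatal day 40 (P40) there were 4 libraries labelled miR29 KO and 4 labelled wild type (WT). At 4 months there were 2 libraries labelled Dnmt3a mi5, whose titles name a miR-29 mutation of Dnmt3a, and 2 labelled WT, whose titles place them with the Dnmt3a line. The labels do not say which miR-29 genes were deleted, in which cells, or what "mi5" stands for, and they name no animal, so replicates are known only to be separate samples and p-values measure the spread between them. No cell type was separated, and cortex holds neurons and glia, so a change per cell and a change in cell makeup cannot be told apart.

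In the brain, mCH is laid down mainly after birth and mainly in neurons by the methyltransferase DNMT3A. The miR-29 microRNAs pair with sites in the Dnmt3a messenger RNA and lower its output. Developmental transcription factor genes are known in many tissues as CpG-rich genes marked by Polycomb proteins and largely free of CG methylation, also where they are silent. Some of the genes described here are known from cortical lineages, while most act in other organs. Lhx2 and Pax6 act in progenitors and some neurons, and Dlx1, Dlx2, Dlx5, Dlx6, Lhx6 and Nkx2-1 in the interneuron lineage. Otx1 acts in deep-layer neurons, and Nkx2-2 and Nkx6-2 in the oligodendrocyte lineage. Whether they were expressed at the ages sampled was not measured here.

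The mature miR-29 sequences are shown because both mutant labels refer to this family. They are given 5′ to 3′ from RefSeq (assembly GRCm38.p6), and capitals mark the seed, bases 2 to 8 from the 5′ end.
mmu-miR-29a-3p (chr6:31062673-31062694, minus strand): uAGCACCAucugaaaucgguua
mmu-miR-29b-3p (chr1:195037091-195037113, plus strand): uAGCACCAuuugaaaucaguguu
mmu-miR-29c-3p (chr1:195037600-195037621, plus strand): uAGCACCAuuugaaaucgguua
All 3 carry the same seed, AGCACCA. The 4 miR-29 genes together had 6 to 69 calls in the miR29 KO libraries and 121 to 244 in WT at P40, and 106 to 129 in Dnmt3a mi5 and 151 to 200 in WT at 4 months.

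Depth and library differences bear on every value below. Calls over all named genes ran from 623835458 to 701084705 in the miR29 KO libraries, 605642599 to 732559463 in WT at P40, 399341554 to 408695037 in Dnmt3a mi5 and 440458313 to 473740622 in WT at 4 months. The median gene of a library had a level of 1.63% to 2.39% in miR29 KO, 1.21% to 1.44% in WT at P40, 2.20% to 2.22% in Dnmt3a mi5 and 1.21% to 1.23% in WT at 4 months. Replicate 4 of the miR29 KO group stood apart with the lowest of its group's 4 medians, and it was the lowest KO library for 45 of the 64 genes. Cytosines that escape conversion also count as methylated. The conversion rate was not analysed here, and the 1st percentile of all gene levels lay at 0.219% to 0.287% over the 12 libraries. In 1 library of each group (miR29 KO replicate 3, WT replicate 2 at P40, Dnmt3a mi5 replicate 1 and WT replicate 2 at 4 months) calls over Y-linked genes were low, at 413 to 1353, while the others had 19079 to 31279. For counting error alone, the 95% Wilson interval in WT replicate 1 at P40 was 0.159% to 0.619% for Dlx5 (8 of 2545 calls methylated, 0.314%) and 2.24% to 2.39% for Pax5 (3231 of 139739 calls, 2.31%).

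The 64 genes held both very low and high levels, and by their quartiles they spread more widely than genes at large. In WT cortex at P40 their mean levels ran from 0.241% (Dlx5) to 4.00% (Nkx6-2, where the row is a noncoding transcript), with quartiles at 0.591%, 1.49% and 2.04%, against 0.762%, 1.31% and 1.93% over all tested genes. Of the 64, 14 (21.9%) lay below 0.5%, against 10.2% of all genes, and 18 (28.1%) reached 2%, against 21.9%. In the miR29 KO 10 of the 64 (15.6%) lay below 0.5%, against 6.13% of all genes, and 34 (53.1%) reached 2%, against 52.1%. In Dnmt3a mi5 these were 4 (6.25%, against 4.72%) and 35 (54.7%, against 55.6%). In WT at 4 months they were 9 (14.1%, against 10.1%) and 13 (20.3%, against 16.9%). Genes with more calls had higher levels. The Spearman correlation over the 64 genes was 0.605 in WT at P40 against 0.255 over all genes, and a call count reflects gene length, base composition and mappability together. This is a description across genes, which are not independent replicates.

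**Figure D1:**
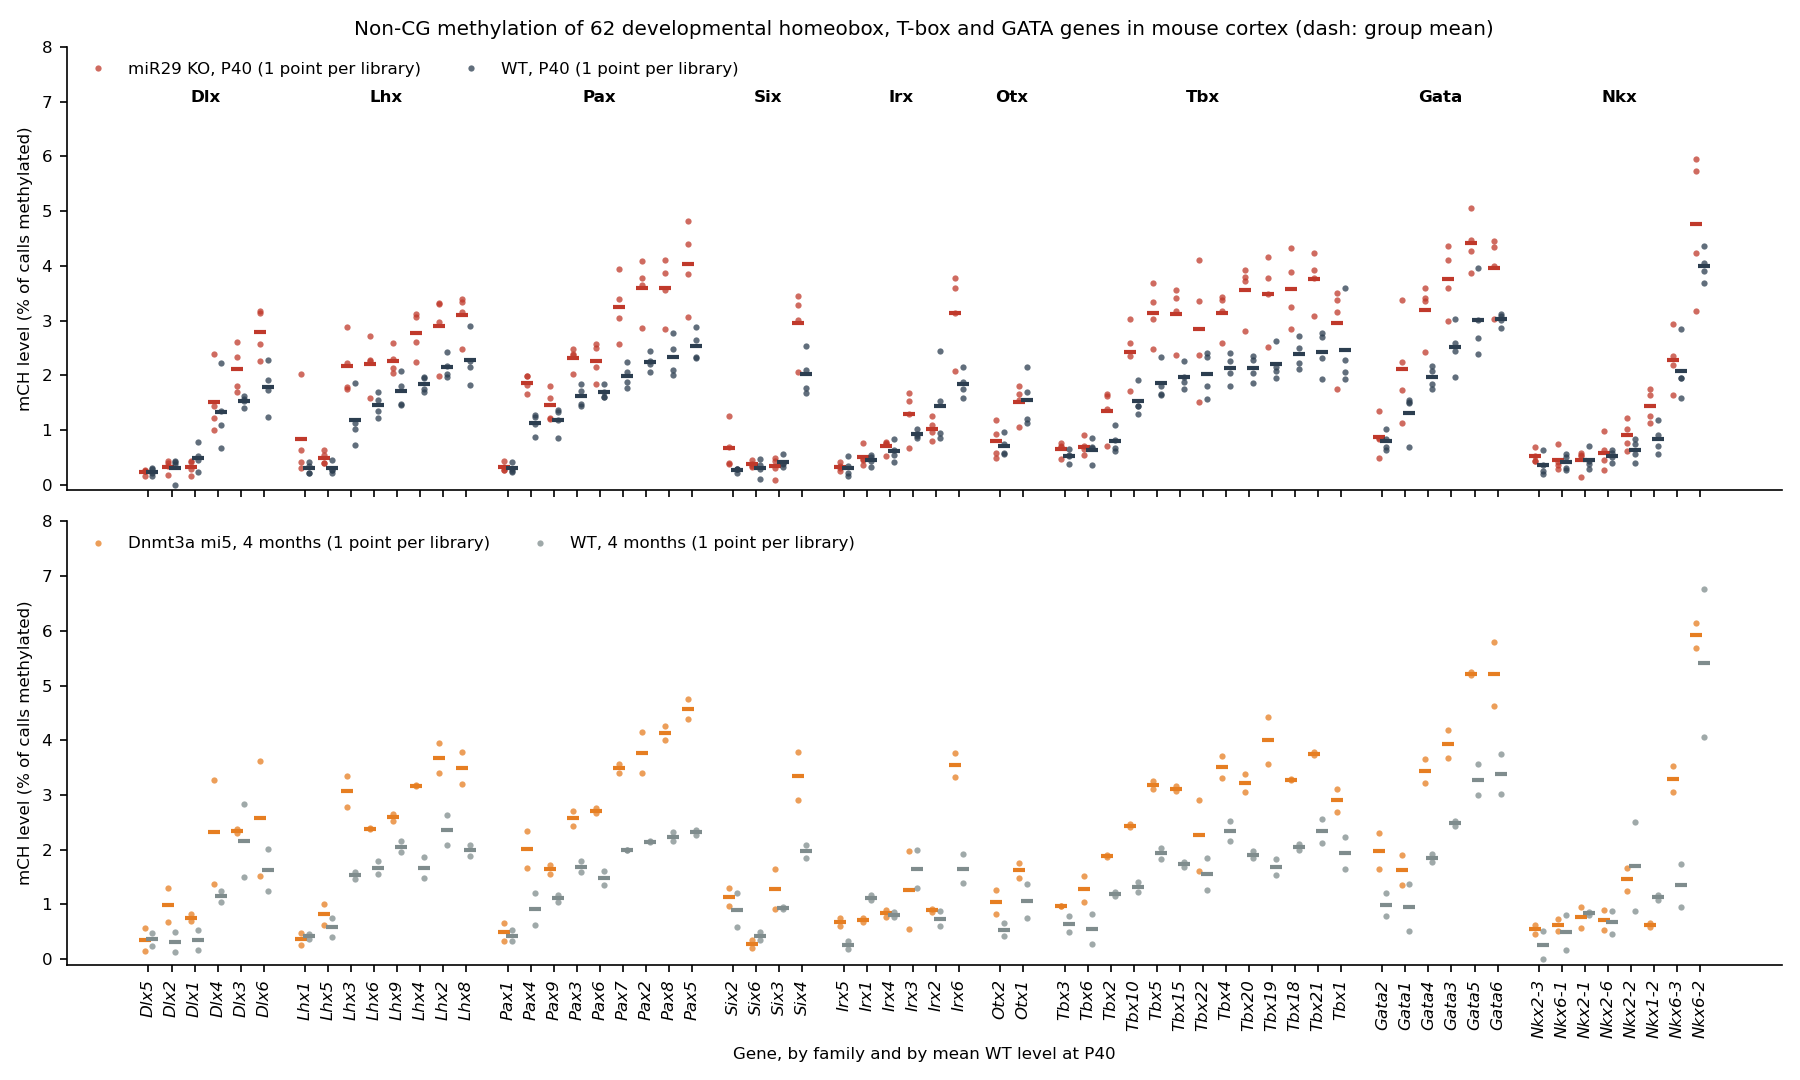
Level of non-CG methylation (vertical axis, percent of calls methylated) of 62 of the 64 genes, grouped by family and ordered by their mean in WT at P40. The upper panel shows the 4 miR29 KO libraries left of the 4 WT libraries at P40 and the lower panel the 2 Dnmt3a mi5 libraries left of the 2 WT libraries at 4 months, with a dash at each group mean. Genes with low levels in WT, such as Dlx5, Pax1 and Lhx1, sit near the lower axis in all 4 groups except for single libraries. Of the Tbx and Gata genes all but Tbx2, Tbx3, Tbx6 and Gata2 have a mean above 1% in WT at P40.

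Family medians differed by several fold. In WT at P40 the mean of the 4 library medians was 0.429% ± 0.105 for Six-family genes, 0.705% ± 0.106 for Nkx, 0.756% ± 0.0854 for Irx and 0.850% ± 0.221 for Dlx (SD over libraries). It was 1.13% ± 0.309 for Otx, 1.61% ± 0.264 for Lhx, 1.69% ± 0.118 for Pax, 2.02% ± 0.238 for Tbx and 2.23% ± 0.290 for Gata. Neighbours in this order were closer than the spread between libraries in several places, among them Irx and Dlx, Lhx and Pax, and Tbx and Gata. Members of a family ranged widely too, Pax from 0.297% (Pax1) to 2.54% (Pax5), Lhx from 0.299% (Lhx1) to 2.29% (Lhx8), and Irx from 0.312% (Irx5) to 1.84% (Irx6).

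**Figure D2:**
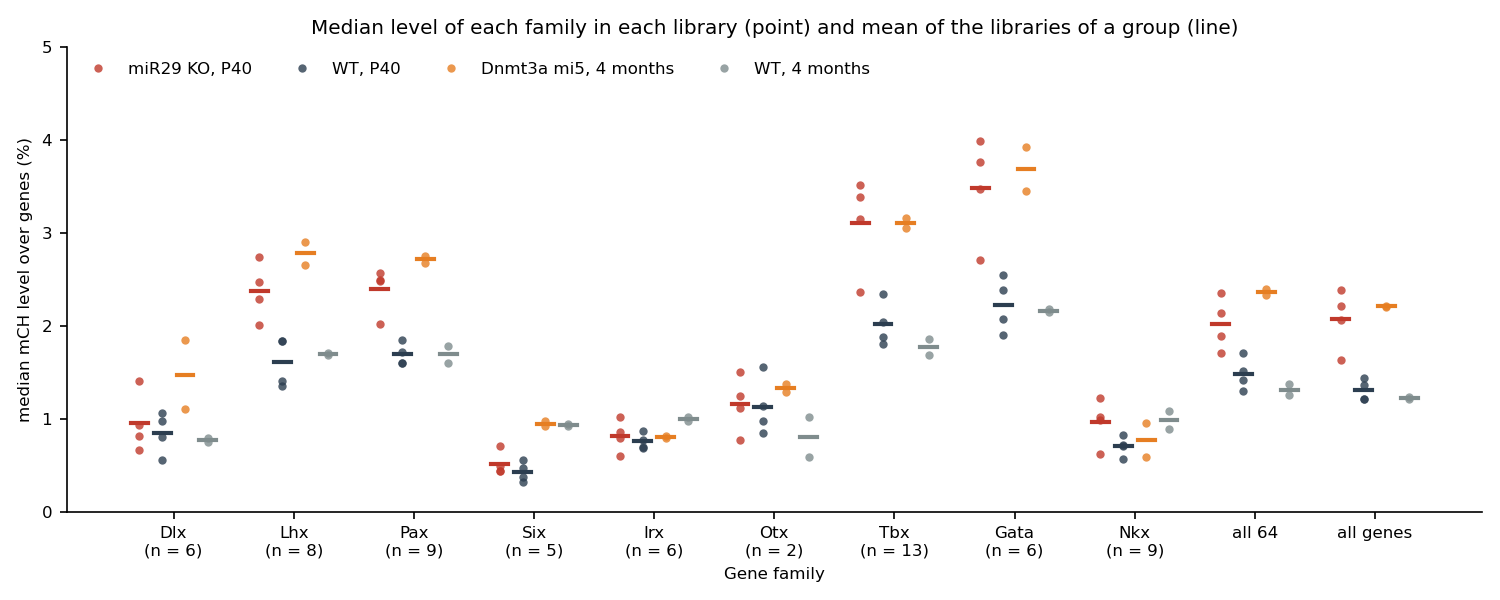
Median level of non-CG methylation over the genes of each family (vertical axis, percent) in each library (point), with a line at the mean of a group's libraries, in the order miR29 KO and WT at P40, then Dnmt3a mi5 and WT at 4 months. For Lhx, Pax, Tbx and Gata every mutant library lies above every WT library of its age, while for the Six-family, Irx and Nkx genes the Dnmt3a mi5 libraries do not all lie above WT. For Irx both mi5 libraries (0.791% and 0.820%) lie below both WT libraries (0.973% and 1.02%).

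**Figure D3:**
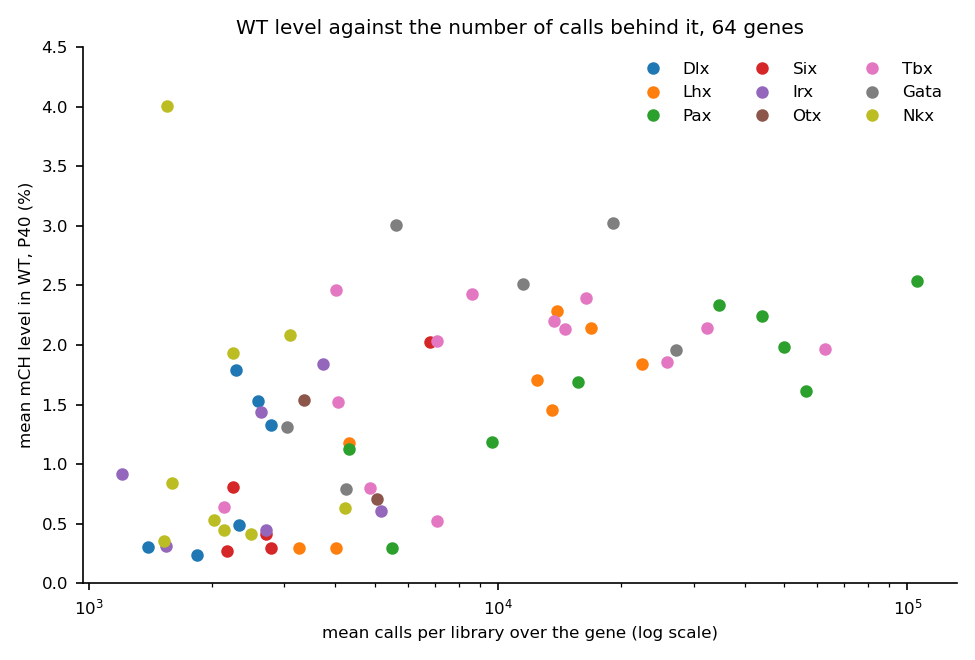
Mean level in WT at P40 (vertical axis, percent) against the mean number of calls per library over the gene (horizontal axis, log scale) for the 64 genes, coloured by family. Genes with fewer than 2500 calls cover the range from 0.241% to 4.00%, and the 20 genes with at least 10000 calls lie between 1.46% (Lhx6) and 3.02% (Gata6).

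Promoters are shown for the Lhx and Pax families, where the lowest and the highest gene each have 1 listed start, as an example of the sequence next to genes at either end of the range. Each is the 250 bases before the start on the gene's strand, from RefSeq (assembly GRCm38.p6), with every CG in capitals.
Lhx1 (chr11:84525535-84525784, minus strand): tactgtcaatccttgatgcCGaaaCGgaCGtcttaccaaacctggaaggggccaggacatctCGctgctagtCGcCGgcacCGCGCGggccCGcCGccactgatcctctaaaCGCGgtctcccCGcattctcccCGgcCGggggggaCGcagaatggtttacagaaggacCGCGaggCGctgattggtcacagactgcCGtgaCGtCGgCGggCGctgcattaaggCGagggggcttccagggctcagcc
Lhx8 (chr3:154330561-154330810, minus strand): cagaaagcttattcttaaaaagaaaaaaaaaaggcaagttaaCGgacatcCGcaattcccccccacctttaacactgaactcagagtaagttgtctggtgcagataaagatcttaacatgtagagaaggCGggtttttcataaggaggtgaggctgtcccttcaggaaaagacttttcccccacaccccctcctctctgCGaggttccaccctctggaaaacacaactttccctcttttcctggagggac
Pax1 (chr2:147364744-147364993, plus strand): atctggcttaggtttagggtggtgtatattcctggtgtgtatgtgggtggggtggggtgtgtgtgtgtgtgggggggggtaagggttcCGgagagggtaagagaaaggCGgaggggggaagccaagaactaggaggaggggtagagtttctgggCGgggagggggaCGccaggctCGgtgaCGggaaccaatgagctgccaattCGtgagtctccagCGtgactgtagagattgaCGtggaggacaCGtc
Pax5 (chr4:44710695-44710944, minus strand): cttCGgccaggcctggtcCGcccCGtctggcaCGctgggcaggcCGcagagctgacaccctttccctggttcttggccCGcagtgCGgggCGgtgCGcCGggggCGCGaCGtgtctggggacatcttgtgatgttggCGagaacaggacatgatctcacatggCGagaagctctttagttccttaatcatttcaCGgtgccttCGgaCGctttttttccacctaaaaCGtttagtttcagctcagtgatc
These stretches hold 26 CG dinucleotides for Lhx1 and 4 for Lhx8, so in this family the gene with less mCH had more of them, while they hold 10 for Pax1 and 19 for Pax5, the other way round. The share of G or C is 64.8% for Lhx1, 46.0% for Lhx8 and 58.8% for both Pax promoters. A promoter was listed for 43 of the 64 genes, too few for a statement on base composition over the whole set, and the levels reported here cover whole transcript bodies and not these windows.

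Neighbouring genes of these families often differed sharply in level. The 64 genes form 16 pairs with at most 3 coding genes between them, of which 14 have none, and in 13 pairs the higher gene had at least 2 times the mean level of the lower in WT at P40. Dlx6 and Dlx5, homeobox genes of forebrain interneurons and of the jaw that stand side by side on chromosome 6, had levels of 1.73%, 2.28%, 1.92% and 1.24% and of 0.314%, 0.150%, 0.210% and 0.289% in the 4 WT libraries at P40, a ratio of 7.44. Dlx6 was higher in 12 of 12 libraries, and its transcript overlaps the noncoding genes Dlx6os1 and Dlx6os2. Irx6 and Irx5 on chromosome 8 differed by a ratio of 5.91, Tbx5 and Lhx5 on chromosome 5 by 6.20, and Tbx5 and Tbx3 by 3.56, each in 12 of 12 libraries. Tbx4 exceeded Tbx2 by a ratio of 2.66 and Pax9 exceeded Nkx2-1 by 2.64, again in all 12 libraries. Dlx3 and Dlx4 were close, at a ratio of 1.15, and Dlx1 exceeded Dlx2 in 8 of 12 libraries. In the pairs with the largest ratios the lower gene had a mean of 0.241% (Dlx5), 0.300% (Lhx5) or 0.312% (Irx5) in WT at P40. The 1st percentile of all gene levels in those libraries was 0.227% to 0.258%, so these ratios rest on values near the floor. Neighbouring genes outside these families were not counted. The pairs were set out after levels were known and carry no test.

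**Figure D4:**
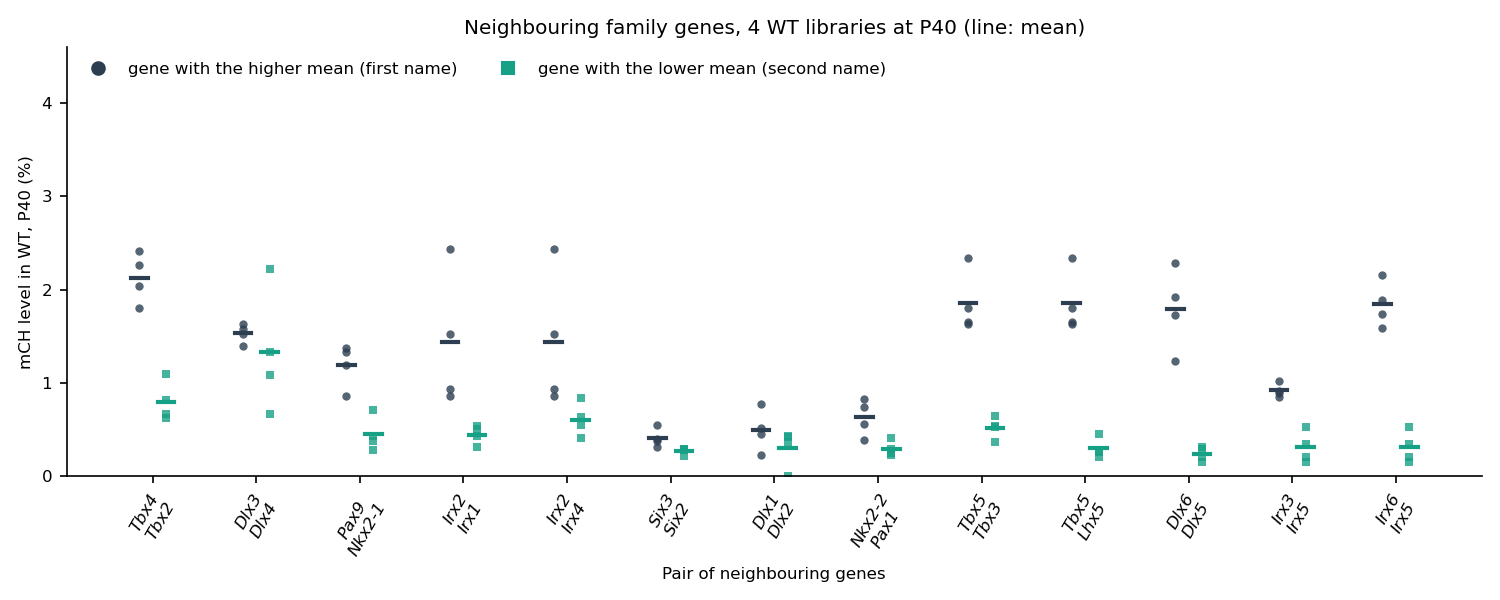
Level of non-CG methylation (vertical axis, percent) in the 4 WT libraries at P40 for 13 of the 16 pairs of neighbouring genes, with the gene of the higher mean as circles on the left and its neighbour as squares on the right, and a line at each mean. In Dlx6 and Dlx5, Irx6 and Irx5, and Tbx5 and Lhx5 the 4 circles all lie above the 4 squares.

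The first comparison asked how these genes differed between miR29 KO and WT cortex at P40. At this age 33 of the 64 genes (51.6%) rose in the miR29 KO and 0 fell, against 76.5% of all tested genes that rose and 0.0504% that fell. Here and below, rose means a Benjamini-Hochberg adjusted p under 0.05 over all tested genes in a quasi-binomial model of the calls with limma-moderated dispersion, and sizes are log2 odds ratios of a call being methylated. The median log2 odds ratio was 0.474 over the 64 genes and 0.653 over all genes, and it was above 0 for 57 of the 64. The 4 KO libraries all lay above the 4 WT libraries for 16 genes (25.0%), against 57.1% of all genes. An unadjusted p under 0.05 was found for 35 genes, 0 of them lower in the KO, and limma on log2(percent + 0.1) called 34, 0 of them lower. Without KO replicate 4, which stood apart, 37 of the 64 rose and the median was 0.588.

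The rises were found mostly among genes with high levels and many calls. Grouped by their level in WT at 4 months, which is not part of this comparison, 0 of 9 genes below 0.5% rose at P40, 2 of 14 between 0.5% and 1%, 5 of 10 between 1% and 1.5%, 14 of 18 between 1.5% and 2%, and 12 of 13 above. Among all genes the shares in the same classes were 11.2%, 62.0%, 91.6%, 96.4% and 95.2%. By depth, 20 of 20 genes with at least 10000 calls rose, against 90.2% of all genes of that depth, while 4 of 16 with fewer than 2500 calls did, against 39.9%. The median standard error was 0.126 for the deepest class and 0.413 for the shallowest. The median log2 odds ratio differed as well, at 0.63 in the deepest class and 0.173 in the shallowest, against 0.668 and 0.551 for all genes of those depths.

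**Figure D5:**
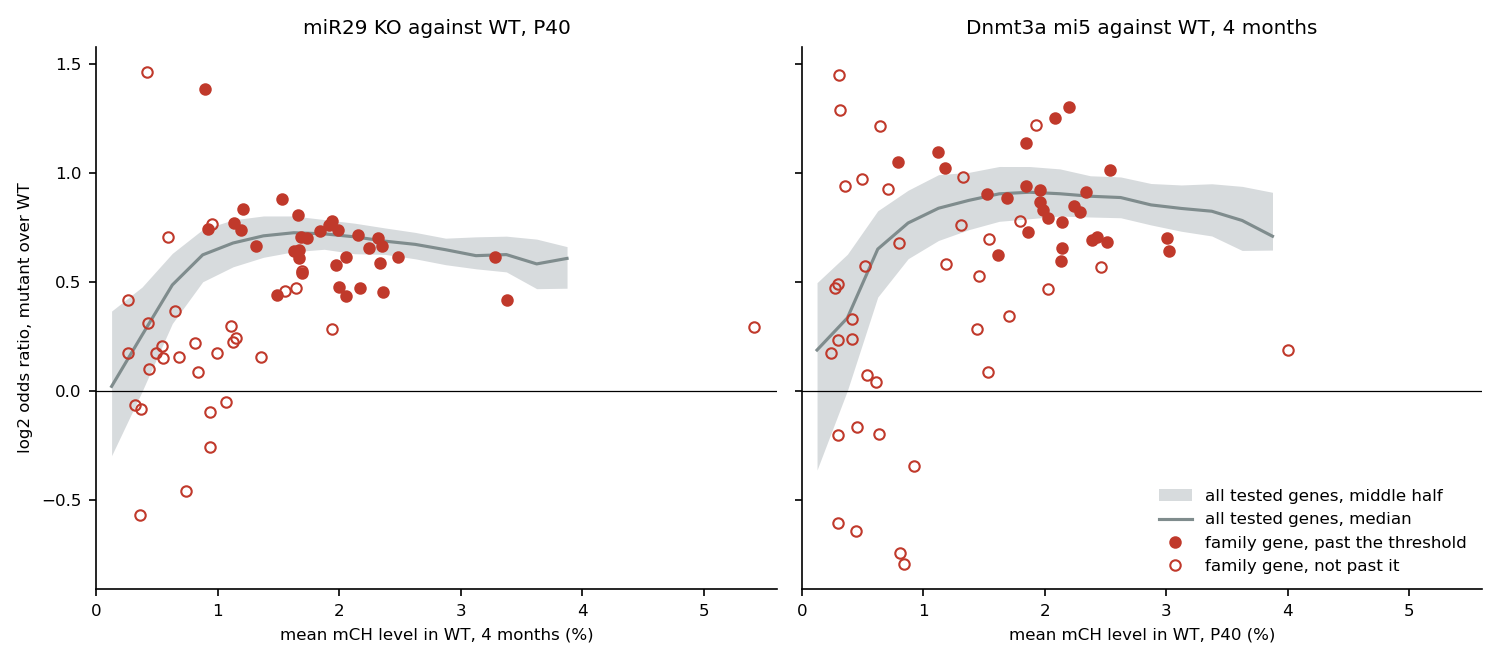
Log2 odds ratio of mutant over WT (vertical axis) against the mean level in the WT group of the other age (horizontal axis, percent), for miR29 KO at P40 on the left and Dnmt3a mi5 at 4 months on the right. Filled circles are genes past the threshold and open circles those not past it, and the grey line and band give the median and the interquartile range of all tested genes. The filled circles lie mainly above 1% on the horizontal axis, and below 1% most circles are open and lie on both sides of 0, more of them above it than below.

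By family, Pax, Lhx, Tbx and Gata held most of the rises at P40. In Pax 7 of 9 genes rose, in Lhx 6 of 8, in Tbx 9 of 13 and in Gata 4 of 6, while in Dlx 2 of 6 rose, in the Six-family genes 2 of 5, in Nkx 2 of 9, in Irx 1 of 6 and in Otx 0 of 2. The family medians of the log2 odds ratio were 0.656 for Pax, 0.629 for Lhx, 0.662 for Tbx and 0.613 for Gata, close to that of all genes, against 0.310 for Six-family genes, 0.290 for Nkx, 0.219 for Irx, 0.087 for Dlx and 0.077 for Otx. Of all tested genes 76.5% rose. The families with fewer rises were also those with the lower median levels in WT at P40. These are counts and medians without a test of families against each other.

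In the Pax family, Pax5, which directs B cell development, had levels of 4.81%, 4.39%, 3.85% and 3.07% in the KO libraries and 2.31%, 2.88%, 2.64% and 2.34% in WT (log2 odds ratio 0.70, SE 0.12, adjusted p = 8.66e-05). Every KO library lay above every WT library. Pax3, which acts in neural crest and muscle, had 2.49%, 2.37%, 2.39% and 2.02% in the KO and 1.48%, 1.72%, 1.84% and 1.44% in WT (log2 odds ratio 0.54, SE 0.12, adjusted p = 0.000493). Pax4, which acts in the endocrine pancreas, had 1.65%, 1.99%, 1.98% and 1.82% in the KO and 0.877%, 1.28%, 1.11% and 1.23% in WT (log2 odds ratio 0.74, SE 0.19, adjusted p = 0.00210). Neither overlapped between the groups, and the same held for Pax2, Pax7 and Pax8, genes of kidney, muscle and thyroid. Pax6, needed for the eye and for cortical progenitors, had levels of 2.14%, 2.57%, 2.495% and 1.84% in the KO and 1.60%, 1.70%, 1.85% and 1.61% in WT (log2 odds ratio 0.44, SE 0.13, adjusted p = 0.00417), with KO replicate 4 below the highest WT library. Its transcript overlaps Elp4 and Pax6os1, so their calls cannot be told apart there, and without the libraries low in Y-linked calls its adjusted p was 0.0725 at a log2 odds ratio of 0.40. Pax1, a gene of the vertebral column and thymus, stayed low, at 0.266%, 0.260%, 0.326% and 0.433% in the KO and 0.290%, 0.231%, 0.256% and 0.412% in WT (log2 odds ratio 0.10, SE 0.37, adjusted p = 0.811), and the groups overlapped.

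Among the Lhx genes, Lhx8, a gene of forebrain cholinergic neurons, had the highest WT level of the family. It measured 3.40%, 3.16%, 3.35% and 2.48% in the KO libraries and 1.83%, 2.90%, 2.26% and 2.15% in WT (log2 odds ratio 0.48, SE 0.13, adjusted p = 0.00366), with WT replicate 2 within the KO range. Lhx3, which acts in the pituitary and in motor neurons, changed more, with 2.23%, 2.88%, 1.79% and 1.75% in the KO and 1.12%, 1.86%, 1.02% and 0.719% in WT (log2 odds ratio 0.88, SE 0.24, adjusted p = 0.00288), and KO replicates 3 and 4 lay below the highest WT library. Lhx2, which specifies cortical progenitors, had 3.30%, 2.98%, 3.33% and 1.98% in the KO and 1.97%, 2.16%, 2.03% and 2.42% in WT (log2 odds ratio 0.45, SE 0.14, adjusted p = 0.00761). KO replicate 4 lay among the WT values for Lhx2, and without the libraries low in Y-linked calls the adjusted p was 0.0533. Lhx6, a gene of cortical interneurons, had 2.72%, 2.27%, 2.28% and 1.58% in the KO and 1.23%, 1.55%, 1.70% and 1.35% in WT (log2 odds ratio 0.65, SE 0.16, adjusted p = 0.00111). Lhx9, a gene of the gonad and thalamus, had 2.13%, 2.59%, 2.30% and 2.05% in the KO and 1.48%, 1.81%, 2.08% and 1.45% in WT (log2 odds ratio 0.44, SE 0.14, adjusted p = 0.00743). In both, the KO group overlapped WT.

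Lhx1, a gene of the head organizer and kidney, rested on a single library. Its levels were 0.407%, 0.634%, 0.302% and 2.03% in the KO and 0.207%, 0.423%, 0.345% and 0.222% in WT (log2 odds ratio 1.46, SE 0.65, adjusted p = 0.0514). Replicate 4, the KO library that was lowest for most genes, was here the highest by far, and without it the log2 odds ratio was 0.55 with an adjusted p of 0.206. The test was passed under several alternatives, with an adjusted p of 0.00321 among libraries with Y-linked calls, which include that library.

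In the Tbx family, Tbx5, which builds the forelimb and heart, had levels of 3.68%, 3.34%, 3.03% and 2.48% in the KO and 1.66%, 2.34%, 1.81% and 1.63% in WT (log2 odds ratio 0.78, SE 0.14, adjusted p = 8.41e-05), and the groups did not overlap. The same held for Tbx4, a gene of the hindlimb. Its levels were 3.18%, 3.37%, 3.43% and 2.59% in the KO and 1.80%, 2.42%, 2.04% and 2.27% in WT (log2 odds ratio 0.58, SE 0.12, adjusted p = 0.000266). Tbx19, which drives pituitary corticotroph cells, had 4.16%, 3.48%, 3.78% and 2.52% in the KO and 1.95%, 2.62%, 2.16% and 2.08% in WT (log2 odds ratio 0.70, SE 0.14, adjusted p = 0.000230), with KO replicate 4 just inside the WT range. Tbx3, a gene of limb and heart with the lowest level of the family, had 0.714%, 0.759%, 0.479% and 0.682% in the KO and 0.370%, 0.538%, 0.533% and 0.649% in WT (log2 odds ratio 0.37, SE 0.25, adjusted p = 0.194), and the groups overlapped. The noncoding gene Tbx3os1 overlaps it. Tbx1, a gene of the pharyngeal arches with the highest WT mean, had 3.51%, 3.39%, 3.15% and 1.75% in the KO and 1.93%, 3.59%, 2.06% and 2.28% in WT (log2 odds ratio 0.28, SE 0.20, adjusted p = 0.209), and it passed without KO replicate 4 or WT replicate 2, at adjusted p of 0.0200 and 0.0195. For Tbx1, WT replicate 2 was the highest of the 8 libraries and KO replicate 4 the lowest, and the adjusted p was 0.0195 without the WT library and 0.0201 without the KO library.

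Among the Gata genes, which act in blood cells and in heart and gut, Gata3 and Gata6 rose and Gata2 did not pass the test. Gata3, the T helper cell factor, had 4.37%, 4.11%, 3.59% and 2.999% in the KO and 2.44%, 3.03%, 2.60% and 1.97% in WT (log2 odds ratio 0.61, SE 0.13, adjusted p = 0.000425). Gata6, a heart and gut factor with the highest WT level of the family, had 4.46%, 4.34%, 4.00% and 3.03% in the KO and 2.86%, 3.13%, 3.02% and 3.09% in WT (log2 odds ratio 0.41, SE 0.12, adjusted p = 0.00354). In Gata3 and Gata6 KO replicate 4 lay within the WT range and the other 3 above it, and the 4 WT libraries for Gata6 lay within 2.86% to 3.13%. Gata2, needed in blood stem cells, had 1.34%, 0.483%, 0.840% and 0.858% in the KO and 0.631%, 1.02%, 0.831% and 0.691% in WT (log2 odds ratio 0.17, SE 0.29, adjusted p = 0.587). Its highest and its lowest values over the 8 libraries were both in the KO.

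The Six-family and Irx genes each included 1 member with a high level that rose beside members that stayed low. Six4, expressed in muscle precursors, had 3.44%, 3.28%, 3.02% and 2.06% in the KO and 1.77%, 2.54%, 2.10% and 1.68% in WT (log2 odds ratio 0.58, SE 0.16, adjusted p = 0.00388), and its transcript overlaps Mnat1. Irx6, expressed in the retina, had 3.14%, 3.59%, 3.77% and 2.08% in the KO and 1.89%, 2.16%, 1.74% and 1.59% in WT (log2 odds ratio 0.81, SE 0.19, adjusted p = 0.000824). In Six4 and Irx6 KO replicate 4 lay among the WT values. Irx5, its neighbour, had 0.248%, 0.311%, 0.349% and 0.414% in the KO and 0.212%, 0.158%, 0.344% and 0.534% in WT (log2 odds ratio 0.17, SE 0.52, adjusted p = 0.768), and the groups overlapped. Irx1, a gene of heart and limb, had 0.759%, 0.478%, 0.455% and 0.361% in the KO and 0.505%, 0.433%, 0.319% and 0.539% in WT (log2 odds ratio 0.22, SE 0.35, adjusted p = 0.568), with KO replicate 1 highest and the rest intermixed. Six2, which keeps nephron progenitors, had 1.25%, 0.695%, 0.391% and 0.380% in the KO and 0.216%, 0.296%, 0.283% and 0.291% in WT (log2 odds ratio 1.38, SE 0.50, adjusted p = 0.0176). The Six2 groups did not overlap, but without KO replicate 1 the log2 odds ratio was 0.87 with an adjusted p of 0.102.

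Of the Dlx genes, which in the forebrain mark interneurons, Dlx6 and Dlx3 rose. Dlx6 had 3.13%, 3.18%, 2.57% and 2.27% in the KO and 1.73%, 2.28%, 1.92% and 1.24% in WT (log2 odds ratio 0.64, SE 0.22, adjusted p = 0.0118). Dlx3, a gene of skin and placenta, had 1.80%, 2.61%, 2.34% and 1.70% in the KO and 1.39%, 1.53%, 1.63% and 1.57% in WT (log2 odds ratio 0.47, SE 0.20, adjusted p = 0.0393). The Dlx6 groups overlapped in 1 library each and the Dlx3 groups did not, but the Dlx3 call was lost without KO replicate 2 or 3 and without any of the 4 WT libraries, at adjusted p of 0.0559 to 0.159. The interneuron genes Dlx1, Dlx2 and Dlx5 stayed near the lower end of the scale. Dlx1 had 0.439%, 0.422%, 0.292% and 0.160% in the KO and 0.516%, 0.231%, 0.779% and 0.449% in WT (log2 odds ratio -0.57, SE 0.45, adjusted p = 0.254). Dlx2 had 0.429%, 0.169%, 0.394% and 0.334% in the KO and 0.370%, 0.428%, 0.421% and 0% in WT (log2 odds ratio -0.07, SE 0.56, adjusted p = 0.915). Dlx5 had 0.168%, 0.246%, 0.271% and 0.247% in the KO and 0.314%, 0.150%, 0.210% and 0.289% in WT (log2 odds ratio -0.09, SE 0.52, adjusted p = 0.886). Their groups overlapped, and the 0 for Dlx2 comes from 1105 calls, which allow a level of up to 0.272% (3 calls of the total, counting error only).

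Among the Nkx and Otx genes few passed the test. Nkx1-2, a homeobox gene of the embryonic tail region, had 1.64%, 1.12%, 1.74% and 1.25% in the KO and 0.570%, 1.18%, 0.912% and 0.707% in WT (log2 odds ratio 0.77, SE 0.28, adjusted p = 0.0183), and it lost the call without KO replicate 1 or 3 or WT replicate 1, at adjusted p of 0.0510 to 0.0862. Nkx2-1, which patterns the ventral forebrain, thyroid and lung, had 0.587%, 0.548%, 0.529% and 0.141% in the KO and 0.374%, 0.279%, 0.713% and 0.436% in WT (log2 odds ratio 0.09, SE 0.41, adjusted p = 0.854). Nkx2-3, a gene of gut and spleen, had 0.432%, 0.686%, 0.533% and 0.438% in the KO and 0.244%, 0.362%, 0.632% and 0.192% in WT (log2 odds ratio 0.42, SE 0.48, adjusted p = 0.428). Both pairs of groups overlapped. Nkx6-3, a stomach gene, had 2.18%, 2.35%, 2.94% and 1.65% in the KO and 1.59%, 2.84%, 1.96% and 1.95% in WT (log2 odds ratio 0.15, SE 0.20, adjusted p = 0.490), again with overlap. Otx1, a gene of deep-layer cortical neurons, had 1.55%, 1.66%, 1.81% and 1.05% in the KO and 1.69%, 2.14%, 1.12% and 1.21% in WT (log2 odds ratio -0.05, SE 0.23, adjusted p = 0.849). Otx2, the head and eye gene, had 0.932%, 0.577%, 1.19% and 0.492% in the KO and 0.578%, 0.967%, 0.567% and 0.735% in WT (log2 odds ratio 0.20, SE 0.29, adjusted p = 0.531).

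The high level of Nkx6-2 depended on the transcript. Its row with the most calls is a noncoding accession that overlaps Inpp5a and Gm33031, and it had levels of 5.96%, 5.73%, 4.24% and 3.17% in the KO and 4.36%, 3.69%, 3.91% and 4.06% in WT (log2 odds ratio 0.29, SE 0.19, adjusted p = 0.163), and it passed without KO replicate 4 (adjusted p = 0.0350). The coding transcript, with as few as 91 calls in a library, lay between 0% and 1.10% over all 12 libraries. Nkx2-2 differed by transcript too, at 0.633% in WT at P40 for the longer row and 0.298% for the other. In Dnmt3a mi5 the noncoding row of Nkx6-2 had 5.69% and 6.15%, against 4.07% and 6.76% in WT at 4 months (log2 odds ratio 0.18, SE 0.32, adjusted p = 0.619). Nkx2-2 had 1.22%, 0.761%, 1.02% and 0.622% in the KO and 0.562%, 0.829%, 0.395% and 0.744% in WT at P40 (log2 odds ratio 0.55, SE 0.32, adjusted p = 0.130). Its levels at 4 months were 1.66% and 1.25% in mi5 and 0.885% and 2.504% in WT (log2 odds ratio -0.20, SE 0.47, adjusted p = 0.717), and the WT libraries were farthest apart. Of the 64 genes, 20 have more than 1 row, and 28 overlap another RefSeq gene, with a median WT level at P40 of 1.74% against 1.15% for the other 36.

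The second comparison asked how the genes differed between Dnmt3a mi5 and WT cortex at 4 months. Here 27 of the 64 genes (42.2%) rose in Dnmt3a mi5 and 0 fell, against 58.8% of all tested genes that rose and 0% that fell. The median log2 odds ratio was 0.693 over the 64 genes and 0.824 over all genes, and it was above 0 for 56. Both mi5 libraries lay above both WT libraries for 41 genes (64.1%), against 86.2% of all genes, and below them for 2 (3.12%), against 1.03%. With 2 libraries in each group the count rests on each of them. It was 13 without mi5 replicate 1, 17 without mi5 replicate 2, 8 without WT replicate 1 and 13 without WT replicate 2, and only Lhx4, Pax5, Pax6, Pax8, Tbx15, Tbx19 and Gata4 were called whichever of the 12 libraries was left out. An unadjusted p under 0.05 was found for 28 genes, 0 of them lower in mi5, and limma on log2(percent + 0.1) called 32, of which Nkx1-2 was lower.

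The pattern over levels and families was again uneven. Grouped by their WT level at P40, 0 of 14 genes below 0.5% rose in Dnmt3a mi5, 1 of 11 between 0.5% and 1%, 2 of 7 between 1% and 1.5%, 9 of 14 between 1.5% and 2%, and 15 of 18 above, against 2.18%, 31.7%, 68.4%, 80.9% and 88.5% of all genes. By family, 7 of 9 Pax, 8 of 13 Tbx, 5 of 6 Gata and 4 of 8 Lhx genes rose, and 1 each of the Six-family, Irx and Nkx genes, but 0 of 6 Dlx and 0 of 2 Otx genes. Of all tested genes 58.8% rose. The median log2 odds ratio of the Dlx genes was 0.874, above that of all genes, but with a wide error: the median standard error of the 16 genes under 2500 calls was 0.702 and 0 of them passed, against 18.6% of all genes of that depth.

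Tbx19 changed most among the genes that rose, with 3.57% and 4.43% in Dnmt3a mi5 and 1.54% and 1.83% in WT (log2 odds ratio 1.30, SE 0.28, adjusted p = 0.00305). Pax5 had 4.76% and 4.38% in mi5 and 2.27% and 2.37% in WT (log2 odds ratio 1.01, SE 0.23, adjusted p = 0.00317). Pax4 had 1.66% and 2.35% in mi5 and 0.627% and 1.22% in WT (log2 odds ratio 1.10, SE 0.37, adjusted p = 0.0184). In all 3 genes both mi5 libraries lay above both WT libraries. Pax6 had 2.68% and 2.76% in mi5 and 1.61% and 1.36% in WT (log2 odds ratio 0.88, SE 0.22, adjusted p = 0.00413). Pax3 had 2.44% and 2.71% in mi5 and 1.60% and 1.79% in WT (log2 odds ratio 0.62, SE 0.20, adjusted p = 0.0124). Pax1 had 0.334% and 0.664% in mi5 and 0.533% and 0.331% in WT (log2 odds ratio 0.23, SE 0.58, adjusted p = 0.730). The Pax6 and Pax3 groups did not overlap, and those of Pax1 did.

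Of the Lhx genes, Lhx3 had 3.36% and 2.78% in Dnmt3a mi5 and 1.47% and 1.59% in WT (log2 odds ratio 1.02, SE 0.40, adjusted p = 0.0339). Lhx8 had 3.21% and 3.78% in mi5 and 2.10% and 1.89% in WT (log2 odds ratio 0.82, SE 0.24, adjusted p = 0.00919). Lhx2 had 3.95% and 3.40% in mi5 and 2.63% and 2.09% in WT (log2 odds ratio 0.65, SE 0.24, adjusted p = 0.0282). Their groups did not overlap, though each of the 3 calls was lost without at least 1 of the 4 libraries. Lhx6 and Lhx9 also lay higher in both mi5 libraries, and did not pass the test (adjusted p of 0.108 and 0.164). Lhx6 had 2.40% and 2.37% in mi5 and 1.55% and 1.79% in WT. Lhx9 had 2.66% and 2.53% in mi5 and 1.95% and 2.16% in WT. With only the 2 groups in the quasi-binomial model the adjusted p was 0.00368 for Lhx6 and 0.0263 for Lhx9, and without KO replicate 4, which enters the shared dispersion, it was 0.0302 for Lhx6. Lhx1, without the single high value it had in the KO, had 0.472% and 0.253% in mi5 and 0.376% and 0.456% in WT.

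In the Gata family 5 of 6 genes rose, and in each of those 5 both mi5 libraries lay above both WT libraries. Of all tested genes 58.8% rose, and for 86.2% both mi5 libraries lay above both WT libraries. Gata2 had 2.31% and 1.65% in Dnmt3a mi5 and 1.20% and 0.782% in WT (log2 odds ratio 1.05, SE 0.44, adjusted p = 0.0481). Gata3 had 4.18% and 3.68% in mi5 and 2.44% and 2.52% in WT (log2 odds ratio 0.68, SE 0.23, adjusted p = 0.0192). Gata6 had 5.80% and 4.62% in mi5 and 3.02% and 3.74% in WT (log2 odds ratio 0.64, SE 0.18, adjusted p = 0.00801). The Gata2 call was at the edge of the threshold and was lost under several alternatives, among them leaving out mi5 replicate 1, where the adjusted p was 0.285, or WT replicate 2, where it was 0.256. Tbx4 had 3.71% and 3.32% in mi5 and 2.15% and 2.52% in WT (log2 odds ratio 0.59, SE 0.21, adjusted p = 0.0238). Tbx5 had 3.25% and 3.11% in mi5 and 2.04% and 1.84% in WT (log2 odds ratio 0.73, SE 0.26, adjusted p = 0.0244). Tbx3 had 0.968% and 0.965% in mi5 and 0.788% and 0.500% in WT (log2 odds ratio 0.57, SE 0.41, adjusted p = 0.224), and its mi5 libraries lay above WT without passing the test.

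The low genes and the small families gave few calls at 4 months. Irx6 had 3.76% and 3.32% in Dnmt3a mi5 and 1.395% and 1.92% in WT (log2 odds ratio 1.13, SE 0.36, adjusted p = 0.0127). Six4 had 3.79% and 2.91% in mi5 and 1.86% and 2.08% in WT (log2 odds ratio 0.79, SE 0.30, adjusted p = 0.0293). Nkx6-3 had 3.54% and 3.06% in mi5 and 0.960% and 1.75% in WT (log2 odds ratio 1.25, SE 0.45, adjusted p = 0.0237). All 3 were separate between the groups. Nkx1-2 and Irx1 were the 2 genes with both mi5 libraries below both WT libraries. Nkx1-2 had 0.655% and 0.587% in mi5 and 1.18% and 1.09% in WT (log2 odds ratio -0.80, SE 0.78, adjusted p = 0.373), with as few as 511 calls in a library. Irx1 had 0.753% and 0.674% in mi5 and 1.17% and 1.07% in WT (log2 odds ratio -0.65, SE 0.49, adjusted p = 0.252). With limma on log2(percent + 0.1) the adjusted p was 0.0177 for Nkx1-2 and 0.0752 for Irx1, and on log2(percent + 0.5) it was 0.0212 and 0.0427, so both calls depend on the test.

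The interneuron Dlx genes lay higher in Dnmt3a mi5 in part and did not pass the test. Dlx1 had 0.690% and 0.820% in mi5 and 0.174% and 0.542% in WT (log2 odds ratio 0.97, SE 0.66, adjusted p = 0.202). Dlx2 had 1.31% and 0.672% in mi5 and 0.124% and 0.506% in WT (log2 odds ratio 1.45, SE 0.86, adjusted p = 0.147), and both were separate between the groups. Dlx5 had 0.140% and 0.569% in mi5 and 0.246% and 0.484% in WT (log2 odds ratio 0.17, SE 0.87, adjusted p = 0.870). Dlx6 had 3.63% and 1.52% in mi5 and 1.25% and 2.01% in WT (log2 odds ratio 0.78, SE 0.46, adjusted p = 0.144). In Dlx6 replicate 1 was high and replicate 2 lay inside the WT range. Otx1 had 1.48% and 1.76% in mi5 and 0.758% and 1.38% in WT (log2 odds ratio 0.69, SE 0.48, adjusted p = 0.210). Otx2 had 1.26% and 0.820% in mi5 and 0.421% and 0.653% in WT (log2 odds ratio 0.92, SE 0.57, adjusted p = 0.163). Both Otx genes were higher in the 2 mi5 libraries than in the 2 WT libraries. The calls on 4 of these genes depend on the setting. With limma on log2(percent + 0.5) the adjusted p was 0.0487 for Dlx1, 0.0219 for Dlx2 and 0.0467 for Otx2, and without mi5 replicate 2 that of Dlx6 was 0.0437 in the quasi-binomial model.

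Genes with values at the ends of the families that have not been described at 4 months gave wide errors. Tbx1 had 3.11% and 2.70% in Dnmt3a mi5 and 2.22% and 1.65% in WT (log2 odds ratio 0.57, SE 0.48, adjusted p = 0.297). Irx5 had 0.746% and 0.599% in mi5 and 0.328% and 0.192% in WT (log2 odds ratio 1.29, SE 0.82, adjusted p = 0.172). In both genes the 2 mi5 libraries lay above the 2 WT libraries, and limma on log2(percent + 0.5) called Irx5 at an adjusted p of 0.0122. Dlx3 had 2.38% and 2.31% in mi5 and 1.503% and 2.84% in WT (log2 odds ratio 0.09, SE 0.39, adjusted p = 0.852). Six2 had 0.977% and 1.31% in mi5 and 1.21% and 0.583% in WT (log2 odds ratio 0.47, SE 0.64, adjusted p = 0.522). Irx2 had 0.870% and 0.922% in mi5 and 0.611% and 0.872% in WT (log2 odds ratio 0.28, SE 0.68, adjusted p = 0.724). Their groups overlapped, with the highest Dlx3 value in WT. Nkx2-1 had 0.959% and 0.572% in mi5 and 0.865% and 0.808% in WT (log2 odds ratio -0.17, SE 0.64, adjusted p = 0.825). Nkx2-3 had 0.630% and 0.466% in mi5 and 0.516% and 0% in WT (log2 odds ratio 0.94, SE 0.98, adjusted p = 0.401), where the 0 rests on 999 calls and allows up to 0.300%. Both overlapped.

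The remaining genes of the families followed the same division. At P40, 12 more genes rose, namely Lhx4, Pax2, Pax7, Pax8, Tbx2, Tbx10, Tbx15, Tbx18, Tbx20, Tbx21, Gata4 and Gata5, with log2 odds ratios of 0.61 (Lhx4) to 0.76 (Tbx20) and adjusted p of 5.88e-05 (Tbx20) to 0.0143 (Tbx2). Of these 12, all but Tbx2 rose in Dnmt3a mi5 as well, at 0.69 (Tbx18) to 0.94 (Lhx4). Tbx20, a heart gene, averaged 3.56% ± 0.504 in the KO and 2.14% ± 0.226 in WT at P40 (SD, n = 4 each), and the groups did not overlap. Tbx21, the T-bet factor of T helper cells, averaged 3.75% ± 0.490 in the KO and 2.43% ± 0.389 in WT (SD, n = 4 each). Lhx4, a pituitary gene, averaged 2.76% ± 0.414 in the KO and 1.84% ± 0.140 in WT (SD, n = 4 each). Neither Tbx21 nor Lhx4 overlapped between the groups. Besides the X-linked genes, 11 more did not pass in either mutant. Among them were Dlx4, Lhx5, Pax9, Six3, Six6, Irx3, Irx4, Tbx6, Nkx2-6 and Nkx6-1, with log2 odds ratios at P40 from -0.26 (Six3) to 0.71 (Lhx5) and at 4 months from -0.61 (Six6) to 1.21 (Tbx6). Pax9, a gene of teeth and thymus, came close to the threshold at 4 months, with 1.64% ± 0.107 in mi5 and 1.11% ± 0.100 in WT (SD, n = 2 each; log2 odds ratio 0.58, SE 0.28, adjusted p = 0.0791). Lhx5, a forebrain and hippocampal gene, averaged 0.489% ± 0.116 in the KO and 0.300% ± 0.108 in WT at P40 (SD, n = 4 each; log2 odds ratio 0.71, SE 0.36, adjusted p = 0.0819). Six3, a gene of eye and forebrain, averaged 0.334% ± 0.179 in the KO and 0.411% ± 0.101 in WT (SD, n = 4 each), and its groups overlapped.

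Set side by side, 25 of the 64 genes rose in both mutants, 8 in the miR29 KO alone, 2 in Dnmt3a mi5 alone and 29 in neither. Of all tested genes 56.8% rose in both, 19.8% in the KO alone, 2.02% in mi5 alone and 21.5% in neither. Among the 8 were Dlx3, Dlx6, Lhx6, Lhx9, Six2, Tbx2 and Nkx1-2, and the 2 were Gata2 and Nkx6-3. A call in 1 mutant and not in the other is no difference between them. The difference itself, tested as an interaction in the same model, passed for 0 of the 64 genes and for 0% of all tested genes. An unadjusted p under 0.05 was found for 1, Nkx6-3, with a log2 difference, miR29 KO effect minus Dnmt3a mi5 effect, of -1.10 (SE 0.49, adjusted p = 0.998), and limma called 0 with 5 at an unadjusted p under 0.05. The mutants were measured at different ages, which cannot be told apart from the mutation here.

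The log2 odds ratio was above 0 for 19004 of the 19822 tested genes in the miR29 KO and for 19024 in Dnmt3a mi5, so each gene was also set against its own library. With every library centred on the level of its median gene, which brought the median log2 odds ratio of all genes to -0.032 for the miR29 KO and -0.0481 for Dnmt3a mi5, the median of the 64 genes was -0.189 in the miR29 KO and -0.178 in Dnmt3a mi5. A centred value below 0 means a change below that of the median gene, not a low level. In the miR29 KO 0 of the 64 genes passed as higher after centring and 3 as lower, against 1.02% and 3.59% of all genes. These were Gata6, at a centred log2 odds ratio of -0.27 with an adjusted p of 0.0333, Otx1 at -0.74 with 0.0344 and Irx2 at -1.16 with 0.0234. Irx2, a gene of heart and limb development, had uncentred levels of 0.796%, 0.956%, 1.26% and 1.09% in the KO and 0.861%, 2.44%, 1.53% and 0.936% in WT, where WT replicate 2 stood far above the others. Limma on centred log2(percent + 0.1) called 0 of the 3, and without KO replicate 1, without KO replicate 2, without KO replicate 4 or without WT replicate 1 the count was 0, 0, 1 and 1. In Dnmt3a mi5 0 genes passed after centring, against 0% of all genes as higher and 0.0353% as lower. In the centred model an unadjusted p under 0.05 was found for 16 of the 64 genes in the miR29 KO, 16 of them lower. In Dnmt3a mi5 it was found for 13, of which 11 were lower.

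The third comparison set WT at 4 months against WT at P40. Titles place the older WT libraries with the Dnmt3a line, and they had fewer calls, so age, line and depth cannot be told apart. Of the 64 genes 0 rose and 0 fell, against 0.131% and 0% of all genes, with 4 at an unadjusted p under 0.05, all higher at 4 months. Limma on log2(percent + 0.1) called 0, with 7 at an unadjusted p under 0.05. WT libraries at 4 months lay above those at P40 for 7 genes (10.9%, against 6.02% of all genes) and below for 3 (4.69%, against 12.1%). After centring, 2 genes were higher at 4 months, against 1.45% of all genes, and 0 were lower, against 0.101%. Nkx2-2, an oligodendrocyte factor, had 0.885% and 2.504% at 4 months and 0.562%, 0.829%, 0.395% and 0.744% at P40 (centred log2 odds ratio 1.503, adjusted p = 0.0267). Only WT replicate 2 at 4 months lay far above the P40 values. The row used overlaps 6430503K07Rik and Nkx2-2os, and the gene's other row averaged 0.425% at 4 months and 0.298% at P40. Irx1 had 1.17% and 1.07% at 4 months and 0.505%, 0.433%, 0.319% and 0.539% at P40 (centred log2 odds ratio 1.42, adjusted p = 0.0336). Six2 had 1.21% and 0.583% at 4 months and 0.216%, 0.296%, 0.283% and 0.291% at P40, which did not pass after centring either (adjusted p = 0.132). In all 3 genes both older libraries lay above the 4 younger ones.

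The 2 X-linked genes of the set, Gata1, the red blood cell factor, and Tbx22, a palate gene, followed another split. Gata1 levels were 3.37%, 2.25%, 1.14% and 1.74% in the miR29 KO and 1.49%, 0.693%, 1.51% and 1.55% in WT at P40, 1.35% and 1.90% in Dnmt3a mi5 and 1.38% and 0.519% in WT at 4 months. Tbx22 levels were 3.36%, 4.11%, 1.51% and 2.37% in the miR29 KO, 1.81%, 1.57%, 2.33% and 2.41% in WT at P40, 1.61% and 2.91% in Dnmt3a mi5 and 1.85% and 1.26% in WT at 4 months. In each of the 4 groups the library low in Y-linked calls had the lowest level of both genes. Over 736 X-linked genes the median in that library was 1.24% against 1.52% to 2.31% in the other KO libraries, and 0.925% against 1.15% to 1.30% in the other WT libraries at P40, while the autosomal median was not the lowest of its group. Neither gene passed the test in the miR29 KO over all libraries, at adjusted p of 0.0579 for Gata1 and 0.205 for Tbx22. Among libraries with Y-linked calls alone, an alternative chosen after seeing the data, both rose, at log2 odds ratios of 0.78 and 0.64 with adjusted p of 0.00890 and 0.00797. In Dnmt3a mi5 neither passed, at adjusted p of 0.427 for Gata1 and 0.411 for Tbx22 over both libraries of each group.

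Lists of related genes, picked with earlier results of these data known, were counted the same way, beside 76.5% of all tested genes that rose in the miR29 KO and 58.8% that rose in Dnmt3a mi5. Of 21 cofactors of these factors (Ldb, Lmo, Ssbp, Eya, Dach, Zfpm and Tle genes), 19 rose in the miR29 KO and 17 in Dnmt3a mi5, with median log2 odds ratios of 0.656 and 0.819, near those of all genes. The 2 that did not pass in either mutant were Ldb1, the scaffold that joins Lhx factors, and Lmo4, a related adaptor. Ldb1 averaged 0.514% ± 0.0453 in the KO and 0.483% ± 0.0834 in WT (SD, n = 4 each). Lmo4 averaged 1.46% ± 0.160 in the KO and 1.19% ± 0.265 in WT (SD, n = 4 each). Among 10 relatives outside the 9 families, 7 rose in the KO and 4 in Dnmt3a mi5. Tbr1, a T-box gene of deep-layer cortical neurons, averaged 1.84% ± 0.348 in the KO and 1.35% ± 0.362 in WT (SD, n = 4 each) and did not pass (log2 odds ratio 0.42, SE 0.20, adjusted p = 0.0626 in the quasi-binomial model). Isl1, a gene of striatal and motor neurons, averaged 0.370% ± 0.0606 in the KO and 0.370% ± 0.0643 in WT (SD, n = 4 each), an almost equal level.

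Other developmental regulators and the Polycomb genes gave the following counts, to be read against the same 76.5% of all tested genes in the KO and 58.8% in Dnmt3a mi5. Of 42 other developmental transcription factor genes tested of 47 listed, 15 rose in the KO and 14 in Dnmt3a mi5, and their median level in WT was 0.654% at P40, lower than that of the 64 genes. Of 18 Polycomb genes tested of 19 listed, 14 rose in the KO, a share near that of all genes, and 8 in Dnmt3a mi5. Ezh2, the methyltransferase of Polycomb repressive complex 2, averaged 2.70% ± 0.365 in the KO and 1.73% ± 0.206 in WT (SD, n = 4 each; log2 odds ratio 0.66, SE 0.12, adjusted p = 0.000131 in the quasi-binomial model). Of the 11 members with known activity in cortical lineages, 4 rose in the KO and 2 in Dnmt3a mi5, both below the shares of all genes. After centring the log2 odds ratio was negative for 11 of these 11 in the KO and for 8 in Dnmt3a mi5, and it passed the threshold as lower for 1 in the KO (Otx1) and 0 in Dnmt3a mi5. The centred median was also negative over the 64 genes, at -0.189 and -0.178, and over all tested genes, at -0.032 and -0.0481. Of the 11, Dlx1, Dlx2, Dlx5, Dlx6, Nkx2-1 and Nkx6-2 averaged fewer than 2500 calls. In that class 39.9% of all genes rose in the KO and 18.6% in Dnmt3a mi5. These counts carry no test of a list against other genes.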

How the data were processed

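Whole-genome bisulfite sequencing of mouse cortex gave 12 libraries. The submitters' processing notes name BSMAP, a bisulfite read aligner, and the mm9 build, and library preparation included unmethylated lambda DNA, per the labels' protocols. The authors deposited 1 gene table per library with methylated calls (counts) and total calls (expected counts), of which 35.7% to 62.2% in a library were whole numbers. The sources used here do not say how totals were made, and they were rounded to whole numbers before testing.

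Each of 36672 rows per table was keyed to a RefSeq transcript. Symbols came from RefSeq (GRCm38.p6), which differs from the files' mm9 build, so no gene coordinates are printed, and 305 rows matched no symbol. The row with the most calls stood for a gene. The coverage minimum of 500 calls in each library was met by 19822 of 23878 named genes.

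Level is methylated over total calls. Groups were tested with a quasi-binomial logistic model on all 12 libraries with group means, 0.5 calls added per group, dispersion moderated by limma (squeezeVar with trend, robust), and Benjamini-Hochberg adjustment over all tested genes (threshold 0.05). Centring added the logit of the library's median gene level as an offset. The genes, families and lists were chosen with earlier results of these data known. Per-library values are given for the highest and lowest gene of each family by WT level at P40, genes active in cortical lineages, up to 5 called genes with the largest and up to 5 with the smallest change per mutant, genes called after centring, and the 3 genes with the smallest p for age and for the difference between mutants. Alternatives were the coverage minimum, transcript choice, limma on log2(percent + 0.1) or log2(percent + 0.5), background subtraction, dispersion without moderation, only the groups compared, the replicate block, and leaving out each library. 2 of the 64 genes enter every count and summary but are not reported singly here. The model was checked on simulated data. R 4.3.3 with limma 3.58.1 and Python 3.11.15 were used, the second with scipy 1.17.1, pandas 2.3.3, matplotlib 3.10.9 and numpy 2.4.6.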

Additional observations from a re-analysis of the deposited data

Results flagged for a closer look

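Among the genes described per library, 3 of 78 groups of 4 libraries held a value far from the other 3, and among all 64 genes 5 of 128 did, where chance gives about 1 in 20. Dlx2 in WT replicate 4 at P40 had 0%, while the median of its group was 0.395%, and the 0 rests on 1105 calls. Nkx2-1 in miR29 KO replicate 4 had 0.141%, while the median of its group was 0.538%. Six2 in WT replicate 1 at P40 had 0.216%, while the median of its group was 0.287% and the other 3 libraries lay close together.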

How the results depend on the processing

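Centring each library on its median gene changed most results. It left 3 genes called in the miR29 KO and 0 in Dnmt3a mi5, gave 2 for age, and moved the median log2 odds ratio to -0.189 and -0.178. It turned the sign of 18 of the 33 called genes in the miR29 KO and of 15 of the 27 in Dnmt3a mi5. Among those given with values per library, these were in the KO Dlx3 (-0.18), Dlx6 (-0.031), Gata3 (-0.076), Gata6 (-0.27), Lhx2 (-0.23), Lhx6 (-0.048), Lhx8 (-0.22), Lhx9 (-0.26), Pax3 (-0.15), Pax6 (-0.25), Six4 (-0.11) and Tbx4 (-0.10). In Dnmt3a mi5 they were Gata3 (-0.19), Gata6 (-0.23), Lhx2 (-0.22), Lhx8 (-0.050), Pax3 (-0.25), Six4 (-0.080), Tbx4 (-0.28) and Tbx5 (-0.14). The offset removes the shift shared by all genes. It brought the median of all tested genes to -0.032 in the miR29 KO and -0.0481 in Dnmt3a mi5. Negative signs were therefore common among all genes too, and the medians of the 64 genes lay lower, at -0.189 and -0.178. How many of all called genes turned sign was not counted, so the counts of turned signs cannot be read as particular to these families. Of the genes listed here with a turned sign, only Gata6 in the KO passed the threshold after centring. In Dnmt3a mi5 the 27 calls became 16 without moderated dispersion and 0 among libraries with Y-linked calls (1 against 1, chosen after seeing the data), and ran from 8 to 30 when a library was left out, against 32 to 37 in the miR29 KO. The 3 calls after centring in the KO became 0 with limma on log2(percent + 0.1), with the 1st percentile of gene levels subtracted and without moderation, 1 with only the groups compared, and 0 to 3 without a library. After centring limma on log2(percent + 0.5) called 3 in Dnmt3a mi5, and its median change without centring was 0.55. The median level of the 64 genes moved in WT at P40 to 1.68% with a minimum of 1000 calls and 1.24% with the 1st percentile subtracted, in Dnmt3a mi5 to 2.64%, 2.10% and, with the transcript of fewest calls, 2.24%, and in WT at 4 months to 1.55% and 1.08%. Subtracting the 1st percentile lowers the median level by construction, and the cause of the other moves was not tested. Apart from centring, the called genes named in the text kept their call in 444 of 459 refits in the miR29 KO and in 285 of 352 in Dnmt3a mi5. Those not called gained a call in 12 of 391 refits, in 3 genes, in the miR29 KO, and in 24 of 498, in 10 genes, in Dnmt3a mi5. These refits include leaving out a library of the other age, which keeps the estimate and changes only its error and adjusted p. The shares of refits therefore do not show how far a call rests on the libraries compared. With the replicate block 35 genes were called in the miR29 KO and 29 in Dnmt3a mi5. Whether same-numbered libraries were paired cannot be told from these values. Correlations of their deviations from group means were -0.011, -0.040, -0.054 and 0.109 at P40, where a differently numbered pair reached 0.206. At 4 months, with 2 libraries a group, the value was -0.0887, and by construction every pair shares its size. Depth limits genes under 2500 calls most.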

Other observations

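Of the 6 genes left out for coverage, Six5 had the most calls, at least 496 in each library, and was not tested. Its levels were 4.89% and 5.85% in Dnmt3a mi5 and 2.30% and 1.74% in WT at 4 months. At P40 they were 3.50%, 1.63%, 3.14% and 1.89% in the miR29 KO and 1.07%, 1.62%, 1.28% and 1.22% in WT. At each age every mutant library lay above every WT library, though at P40 the lowest KO value (1.63%) and the highest WT value (1.62%) were almost equal. The libraries were separated in this way for 57.1% of all tested genes in the miR29 KO and for 86.2% in Dnmt3a mi5.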
